A study of Mus musculus with 55 samples.

Results

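Meningeal fibroblast genes were followed in the dorsal hippocampus of single mice. The members were Dcn, Lum, Col1a1, Col1a2, Col3a1, Igf2, Ogn, Slc6a13, Aldh1a2 and Mgp, found by gene symbol as 10 of the 55487 genes of the count table. RNA was sequenced from the dorsal-most part of the hippocampus of 55 adult mice, 43 females staged by estrous cycle and 12 males, on a C57/BL6j background. The WT mice were 5 males and 22 females, of which 7 were in estrus, 5 in proestrus, 6 in diestrus and 4 in metestrus. The Cnih3 KO mice were 7 males and 21 females, with 6 in estrus, 4 in proestrus, 6 in diestrus and 5 in metestrus. The KO mice were homozygous for a constitutive mutation that removes an exon of Cnih3 and shifts its reading frame, in every tissue and not in fibroblasts alone. WT mice came in part from B6 parents and in part from litters of Cnih3 mutant parents. Ages ran from 10.86 to 23.71 weeks, and differed between groups: KO males were 18.29 to 23.71 weeks old and KO proestrus females 13 to 14.57 weeks old. Libraries were made from poly-A RNA by a kit that does not keep strand. Some label numbers share their first part between mice of different groups, and the labels do not say what that part marks.

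Fibroblasts of the pia and arachnoid, the leptomeninges, cover the surface of the hippocampus and follow its penetrating vessels. They lay down fibrillar collagen and the small proteoglycans that coat it, secrete growth factors such as IGF2, make retinoic acid, and carry transporters that clear GABA and other solutes from the cerebrospinal fluid. Ttr, transthyretin, is the carrier of thyroid hormone and retinol-binding protein that choroid plexus epithelium secretes, and neurons and glia of the hippocampus make little of it. The choroid plexus lies next to the hippocampus in the lateral ventricle and has a stroma with fibroblasts of its own beneath the epithelium. The question put to these genes was whether their levels followed Ttr from mouse to mouse.

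Total counts were 25881295 to 63547098 per library, with a median of 53384170. Ttr ran from 3.83 to 2098 CPM (counts scaled to library size), a 546-fold range with a median of 63.4 CPM, and its values formed a continuous series in which no gap on the log2 scale was wider than 0.77. Markers of the labelled tissue were high, with Camk2a at a mean of 10.85, Zbtb20 at 9.63 and Neurod6 at 9.36 on the log2 CPM scale. Of the 10 members, 8 passed the filter of more than 1 CPM in at least 10 libraries, beside 16168 genes in all. Col3a1 and Igf2 did not pass in the gene table, with 9 and 0 libraries above 1 CPM. In bulk tissue, fewer fibroblasts and less RNA per fibroblast cannot be told apart.

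The start regions of 6 members were listed in the RefSeq promoter table of build GRCm38.p6, in 11 windows. The 250 bases before the start are shown for 4 members, chosen to set a collagen chain and a proteoglycan that rose with Ttr beside a transporter and an enzyme whose slopes did not pass the test. Capitals mark the CCAAT box, the letters TATAAA of a TATA box and the letters GGGCGG of a GC box, searched on both strands, so that the reverse complement is capitalised too.
Col1a2, chr6:4505368-4505617, plus strand: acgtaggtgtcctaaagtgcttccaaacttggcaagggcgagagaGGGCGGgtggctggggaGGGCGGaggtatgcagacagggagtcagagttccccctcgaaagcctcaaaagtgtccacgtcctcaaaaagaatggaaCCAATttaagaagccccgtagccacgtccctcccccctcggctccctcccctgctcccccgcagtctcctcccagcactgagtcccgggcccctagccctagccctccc
Ogn, chr13:49607765-49608014, plus strand: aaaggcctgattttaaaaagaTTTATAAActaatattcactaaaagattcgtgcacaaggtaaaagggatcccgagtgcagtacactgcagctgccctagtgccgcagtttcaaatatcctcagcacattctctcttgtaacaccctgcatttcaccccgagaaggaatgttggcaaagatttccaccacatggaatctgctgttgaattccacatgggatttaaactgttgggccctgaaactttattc
Slc6a13, chr6:121300038-121300287, plus strand: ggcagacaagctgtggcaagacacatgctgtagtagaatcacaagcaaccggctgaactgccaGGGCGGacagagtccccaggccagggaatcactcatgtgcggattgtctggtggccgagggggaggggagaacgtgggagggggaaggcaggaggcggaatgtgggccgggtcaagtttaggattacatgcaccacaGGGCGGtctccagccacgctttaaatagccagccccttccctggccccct
Aldh1a2, chr9:71215539-71215788, plus strand: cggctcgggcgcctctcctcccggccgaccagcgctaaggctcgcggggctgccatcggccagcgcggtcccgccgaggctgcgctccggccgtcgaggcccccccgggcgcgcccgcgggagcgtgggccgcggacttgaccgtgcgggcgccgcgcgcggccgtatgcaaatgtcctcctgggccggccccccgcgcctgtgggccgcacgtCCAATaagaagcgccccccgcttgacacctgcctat
Col1a2 held 1 CCAAT box and 2 GC boxes, Aldh1a2 held 1 CCAAT box, this window of Slc6a13 held 2 GC boxes, and Ogn held the TATA letters on both strands at overlapping positions. Over 32851 windows of the table, the CCAAT box was found in 33.8%, the TATA letters in 12.4% and the GC box in 32.7%. Dcn (10:97479609-97518143), Lum (10:97565128-97572703), Col1a1 (11:94936224-94953042) and Mgp (6:136872435-136875823) are placed by their GRCm38 gene models.

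All members were expressed at low levels. Per kilobase of exon, Mgp, matrix Gla protein, an inhibitor of calcification, was the highest with a median of 5.22 CPM per kilobase, ahead of Ogn with 1.85 and Aldh1a2 with 1.09. Slc6a13 with 0.971, Lum with 0.965 and Dcn with 0.845 followed closely, and the collagen chains were lower, at 0.399 for Col1a1, 0.216 for Col1a2 and 0.0376 for Col3a1. Neighbours in the run from Slc6a13 to Dcn differed by far less than the spread between mice. Igf2 had the lowest median in the gene table, 0.0328 CPM per kilobase.

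The small leucine-rich proteoglycans came first by role. Decorin, the product of Dcn, binds collagen fibrils and limits their width, and Dcn had a median of 4.93 CPM with a range from 2.28 CPM in WT estrus mouse 2 to 35.9 CPM in WT male mouse 2. Lum, lumican, another fibril-binding proteoglycan, had a median of 2.36 CPM and ran from 0.926 to 8.95 CPM. Ogn, osteoglycin, had a median of 4.75 CPM and ran from 0.706 to 15.9 CPM. Among the collagens, Col1a1 and Col1a2 encode the chains of type I collagen. Col1a1 ran from 1.45 to 8.31 CPM around a median of 2.62 CPM, and Col1a2 from 1.18 to 18.7 CPM around a median of 2.68 CPM. Col3a1, the chain of type III collagen, had 4 to 150 counts per library and a median of 0.369 CPM. Mgp ran from 2.67 to 19.3 CPM around 6.20 CPM. Slc6a13, the GABA and taurine transporter GAT2 of the leptomeninges, ran from 0.457 to 12.3 CPM around 2.82 CPM. Aldh1a2, the enzyme that makes retinoic acid in the meninges, ran from 0.980 to 15.1 CPM around 2.47 CPM.

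**Figure D1:**
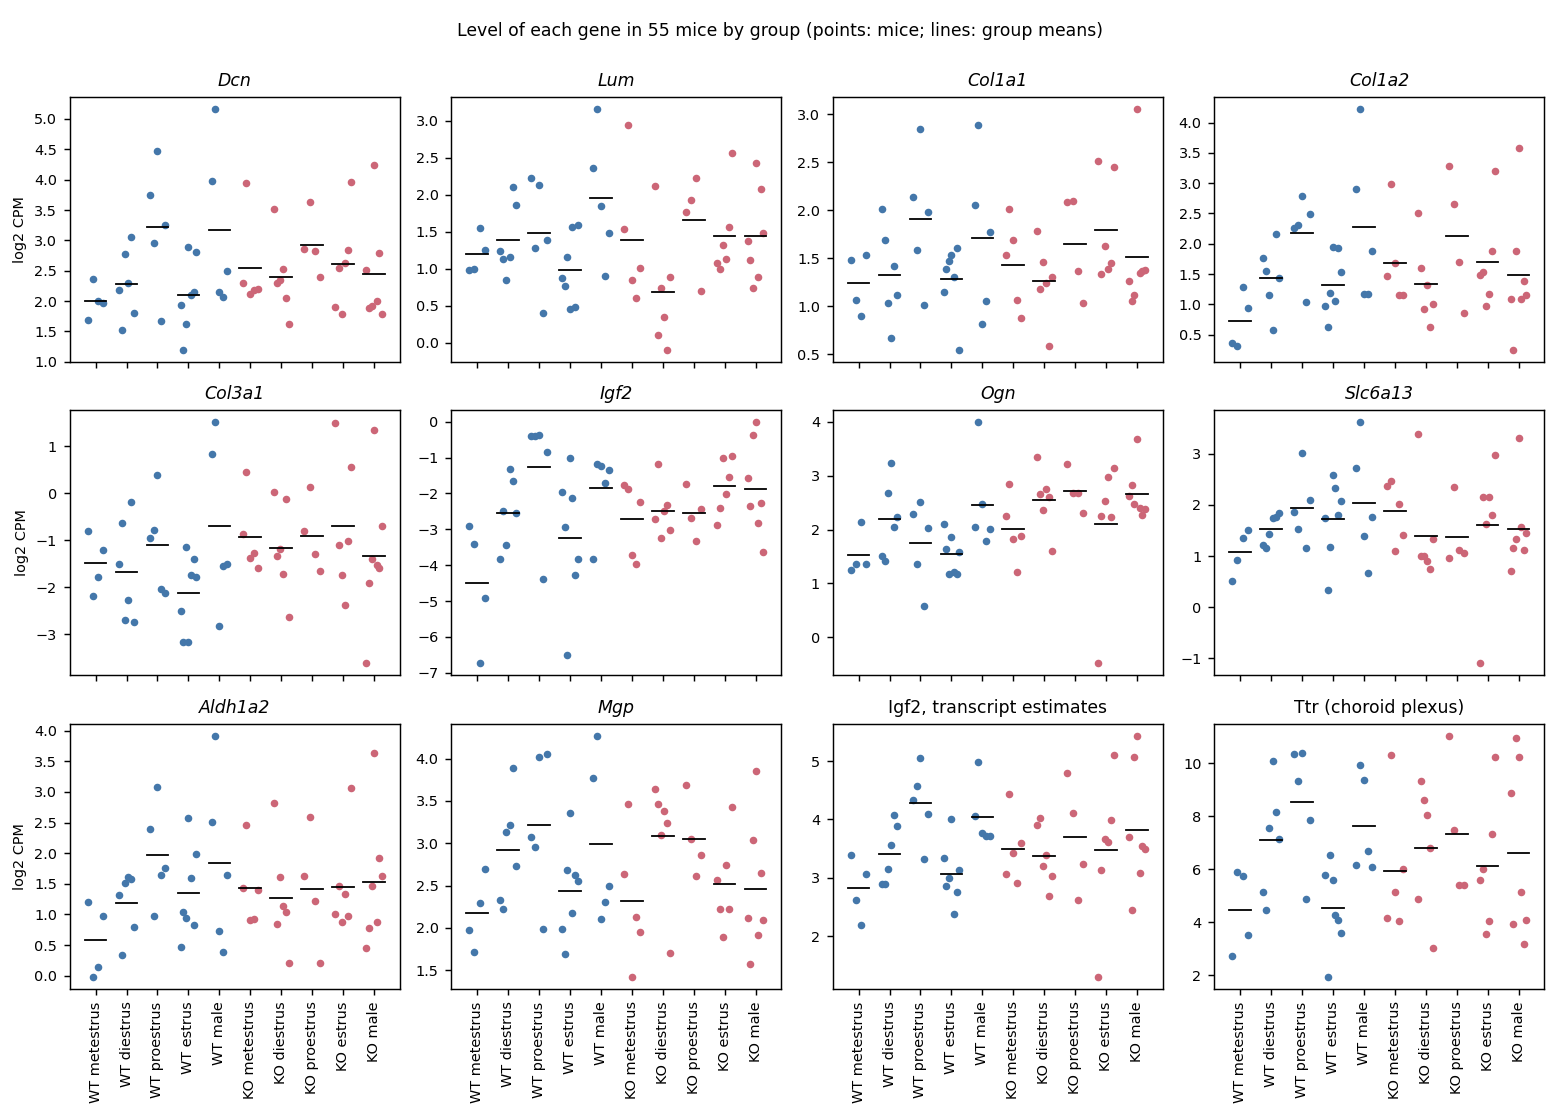
Level of each member, of Igf2 from transcript estimates and of Ttr in the 55 mice (vertical axes, log2 CPM, a scale of its own in each panel) by group (horizontal axes), with 1 point per mouse, WT in blue and KO in red, and a line at each group mean. WT male mouse 2, with Dcn at 35.9 CPM, and KO male mouse 4 stand above their groups in many panels, and KO estrus mouse 1 stands far below its group in Ogn, Slc6a13 and the transcript estimates of Igf2.

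The highest values came from few mice. WT male mouse 2 held the highest value of 8 members, with Dcn at 7.28 times the median of all mice, and KO male mouse 4 held the highest value of the other 2, Col1a1 and Igf2. Both were also high in Ttr, with 984 and 1199 CPM, which ranked 9 and 6 of the 55 mice. The spread within groups was 0.55 (Col1a1) to 0.88 (Aldh1a2) SD on the log2 CPM scale in the 8 tested members, against 2.35 for Ttr. WT metestrus had the lowest group mean of 7 of these 8 members and of Ttr. In those 4 mice Dcn was 3.22 to 5.15 CPM and Ttr was 6.54, 58.7, 53.8 and 11.3 CPM.

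In the mice with the most Ttr the members were not evenly high. KO proestrus mouse 1, the first in Ttr with 2098 CPM, ranked 3 in Col1a2, 5 in Ogn and 7 in Mgp, but 14 in Dcn and 47 in Slc6a13. KO male mouse 3, the next in Ttr with 1958 CPM, ranked 17 in Col1a2 and 20 in Mgp, but 41 in Col1a1, 44 in Dcn and 46 in Lum. WT proestrus mouse 3, with 1317 CPM of Ttr, ranked 2 in Dcn and 3 in each of Col1a1, Aldh1a2 and Mgp. At the other end, WT estrus mouse 2 had the least Ttr, 3.83 CPM, and ranked 55 in Dcn, 54 in Slc6a13, 53 in Mgp and 51 in Col1a2, but 29 in Col1a1 and 32 in Aldh1a2. KO diestrus mouse 1 went the other way, with Ttr at rank 40 (29.0 CPM), Slc6a13 at rank 2 (10.5 CPM), Ogn at rank 3 (10.2 CPM) and Aldh1a2 at rank 5 (7.05 CPM). KO male mouse 6, with 9.00 CPM of Ttr, ranked 11 in Lum and 12 in Aldh1a2.

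**Figure D2:**
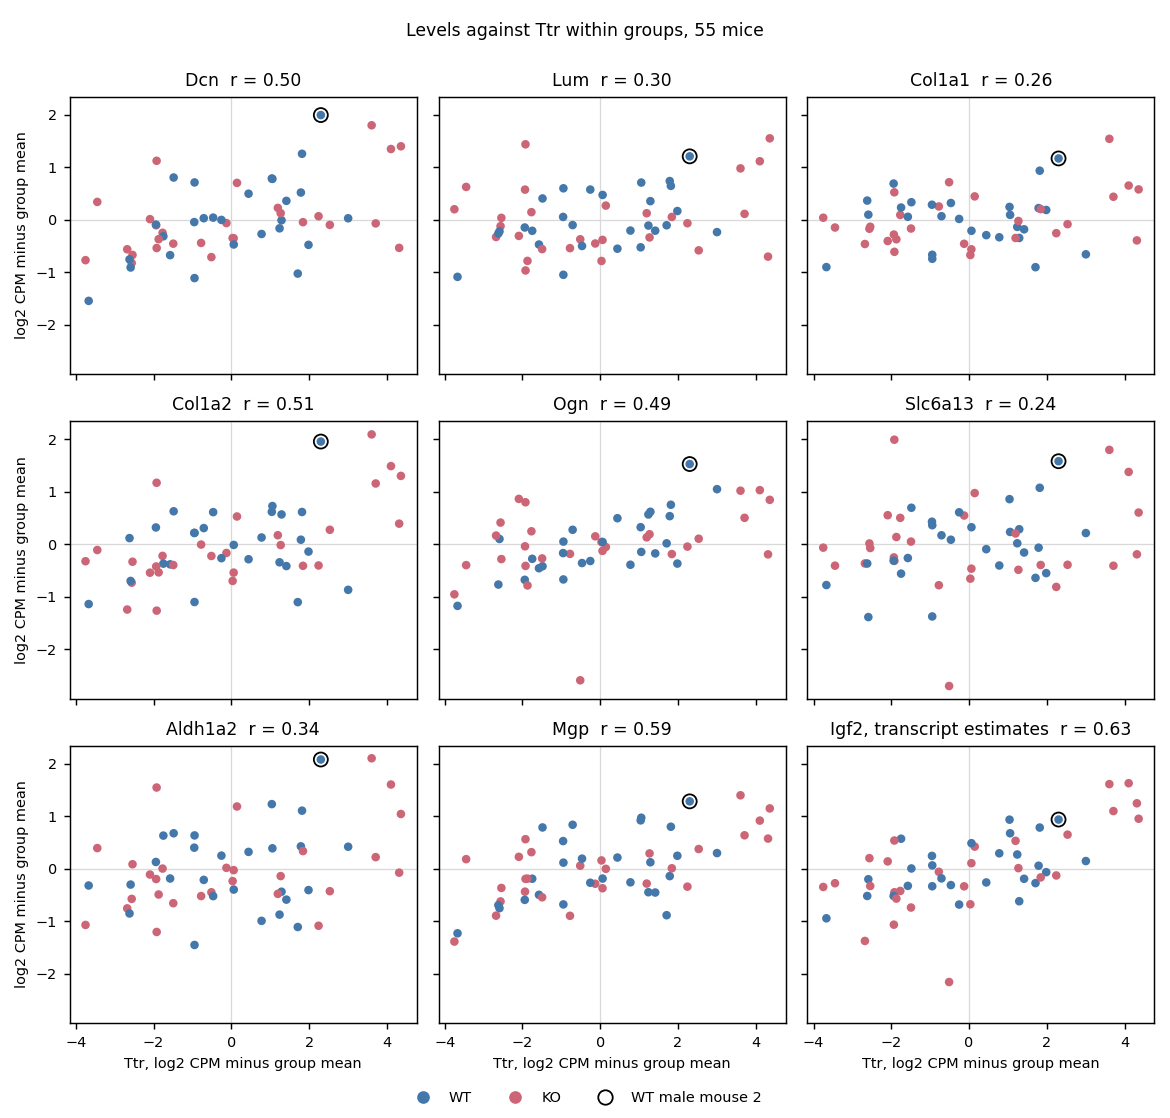
Level of the 8 tested members and of Igf2 from transcript estimates (vertical axes, log2 CPM minus the group mean) against Ttr (horizontal axes, log2 CPM minus the group mean), with 1 point per mouse, WT in blue, KO in red and WT male mouse 2 circled. The tilt is clearest in Igf2 (r = 0.626) and Mgp (r = 0.587) and weakest in Slc6a13 (r = 0.238).

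Slopes on Ttr were fitted across all 55 mice with 10 group means, so that they describe mice within a group. A slope is the change of a gene in log2 units for each doubling of Ttr. Of the 8 members, 4 rose with Ttr by limma at a false discovery rate (FDR) under 0.05, and these were Col1a2, Dcn, Mgp and Ogn. Over all 16167 genes, 1.65% passed, 243 upward and 24 downward, and the median slope was -0.0011. The slope of Col1a2 was 0.198 (SE 0.040, FDR 0.00112), which is 1.15-fold per doubling of Ttr. Dcn had a slope of 0.184 (SE 0.041, FDR 0.00422) and Mgp of 0.170 (SE 0.032, FDR 0.000359). Ogn had a slope of 0.125 (SE 0.031, FDR 0.0192). The other slopes were positive but did not pass, at 0.109 (SE 0.050, FDR 0.296) for Aldh1a2, 0.097 (SE 0.035, FDR 0.162) for Lum, 0.081 (SE 0.047, FDR 0.433) for Slc6a13 and 0.079 (SE 0.032, FDR 0.225) for Col1a1. These calls depended on the mice with the most Ttr, and those of Dcn and Ogn also on single mice. All 4 passed in 52 of the 55 fits that left out 1 mouse. Without the 10 mice highest in Ttr only Dcn passed, and in the 20 mice whose label number is written without a joined second part none did, with slopes from 0.032 to 0.166. In the other 35 mice 5 members passed, with slopes from 0.115 to 0.250. Without WT proestrus mouse 4, which had 29.4 CPM of Ttr and ranked from 39 (Slc6a13) to 54 (Ogn) in every tested member but Aldh1a2 (15), 2 members passed.

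The members had smaller slopes at the median than genes of choroid plexus epithelium. All 19 tested genes of that list besides Ttr rose, with a median slope of 0.55 and a range of 0.168 to 0.960, against a median of 0.117 in the 8 members. Among its most abundant genes were Enpp2, which makes lysophosphatidic acid, at 0.268 (SE 0.026, FDR 3.22e-11), Kl, the co-receptor Klotho, at 0.168 (SE 0.018, FDR 4.03e-10), and Sostdc1, a secreted antagonist of BMP signals, at 0.301 (SE 0.027, FDR 1.96e-12). The slopes of Col1a2, Dcn and Mgp lay above that of Kl, which had the lowest slope of the 19 genes. Kl was at 11.8 CPM or more in every mouse.

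**Figure D3:**
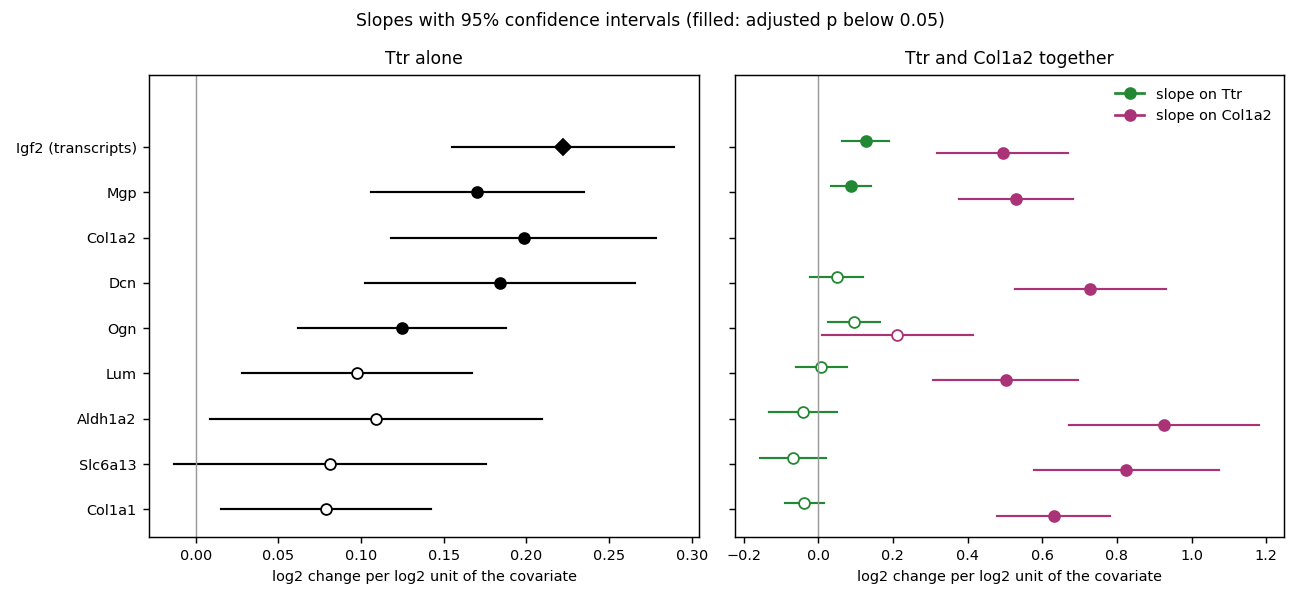
Slopes with 95% confidence intervals (horizontal axes, log2 change per log2 unit of the covariate) from the model with Ttr alone, at left, and with Ttr and Col1a2 together, at right, where green is the slope on Ttr and purple that on Col1a2. Filled symbols have an FDR under 0.05, and Igf2 is from the transcript table. Alone, all estimates lie above 0, from 0.079 to 0.222; together, only Igf2 and Mgp are filled on Ttr, and all but Ogn on Col1a2.

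Igf2, the imprinted growth factor that leptomeninges and choroid plexus both secrete, needed another table. The gene table gave it 0 to 50 counts per library, with a median of 0.188 CPM. Its gene model (7:142650766-142666816, minus strand) shares 62.8% of its exon length with a predicted gene of the same strand, Gm49394, named here after its values were seen. Gm49394 had 0 counts in every library. By default featureCounts gives a read that lies in exons of both genes to neither. Whether this lowered the counts of Igf2 here was not tested. In the deposited estimates per transcript, summed over the 8 Igf2 transcripts used here, Igf2 had 37.3 to 720 estimated counts per library with a median of 162, while Gm49394 had a median of 0 and at most 19.4. That came to 2.45 to 43.2 CPM of that table, above 1 CPM in 55 of 55 mice, with the highest value in KO male mouse 4. The sum leaves out other Igf2 transcripts. Its CPM are relative to the transcripts used here, so they are not the level of the whole gene. Of the sum, 48.8% came from Igf2-208, annotated as a processed transcript and not as protein-coding, and 35.6% from the protein-coding Igf2-202.

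In this table Igf2 rose with Ttr more steeply than any member of the gene table. Its slope was 0.222 (SE 0.033, 95% interval 0.155 to 0.289, FDR 6.28e-06, limma), where 1.31% of 13866 genes passed. The interval overlaps those of Col1a2, Dcn and Mgp, and the tables were scaled separately. Within groups its level correlated with Ttr at r = 0.626 (permutation p = 2e-05) and rho = 0.606 (permutation p = 1e-05, the smallest that 100000 permutations can give), and at r = 0.563 without the 2 mice farthest from the median of Ttr. In the 5 WT proestrus mice Igf2 was at 20.1, 23.7, 33.3, 10.0 and 17.0 CPM, and in the 7 WT estrus mice it ran from 5.17 through a median of 7.99 to 16.0 CPM. The groups overlapped only through proestrus mouse 4, and the difference, estrus minus proestrus, was -1.30 (SE 0.39, FDR 0.048, limma), where 3.74% of genes passed.

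Members were next compared with each other. Over the 55 mice with group means removed, the 28 pairs of the 8 tested members had a median r of 0.646 (0.201 to 0.828), and their r with Ttr had a median of 0.415 (0.238 to 0.587). In 7 of 8 members the median r with the other members was above the r with Ttr. Mgp was the exception, with 0.569 and 0.587. These values are descriptions, as all points share the same libraries. Slc6a13 stood out among the others, with a median of 0.644 beside 0.238.

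Tested against permutations of Ttr within groups, Pearson's r passed for 2 members after adjustment over 16167 genes, of which 141 passed. Mgp had r = 0.587 (permutation p = 2e-05, adjusted 0.00376) and rho = 0.55 (permutation p = 9e-05, adjusted 0.0148). Ogn had r = 0.49 (permutation p = 0.00033, adjusted 0.0398) and rho = 0.488 (permutation p = 3e-04, adjusted 0.0357). Col1a2 and Dcn were close, with r = 0.513 (adjusted permutation p = 0.0509) and r = 0.504 (adjusted permutation p = 0.0532). Their rho was 0.434 (adjusted permutation p = 0.154) and 0.486 (adjusted permutation p = 0.0513). The remaining r were 0.34 for Aldh1a2, 0.301 for Lum, 0.264 for Col1a1, 0.252 for Col3a1 and 0.238 for Slc6a13, and Ttr accounted for 5.64% (Slc6a13) to 34.4% (Mgp) of the variance within groups. Without the 2 mice farthest from the median of Ttr, KO proestrus mouse 1 and KO male mouse 3, r was 0.563 in Mgp, 0.517 in Ogn, 0.478 in Col1a2 and 0.593 in Dcn. In a fit of WT mice alone 2 members had a slope that passed, and in a fit of KO mice alone 3. The shares of all genes that passed there are not given here. With a slope for each genotype in 1 fit of all mice, Dcn, Ogn and Mgp passed in WT (limma, FDR 0.0323, 0.01 and 0.0487). In KO, Dcn, Col1a2 and Mgp passed in that fit (limma, FDR 0.0244, 1.44e-05 and 0.000458). The shares of all genes that passed on either slope of that fit are not given here either. How many members passed is therefore not set against all genes.

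**Figure D4:**
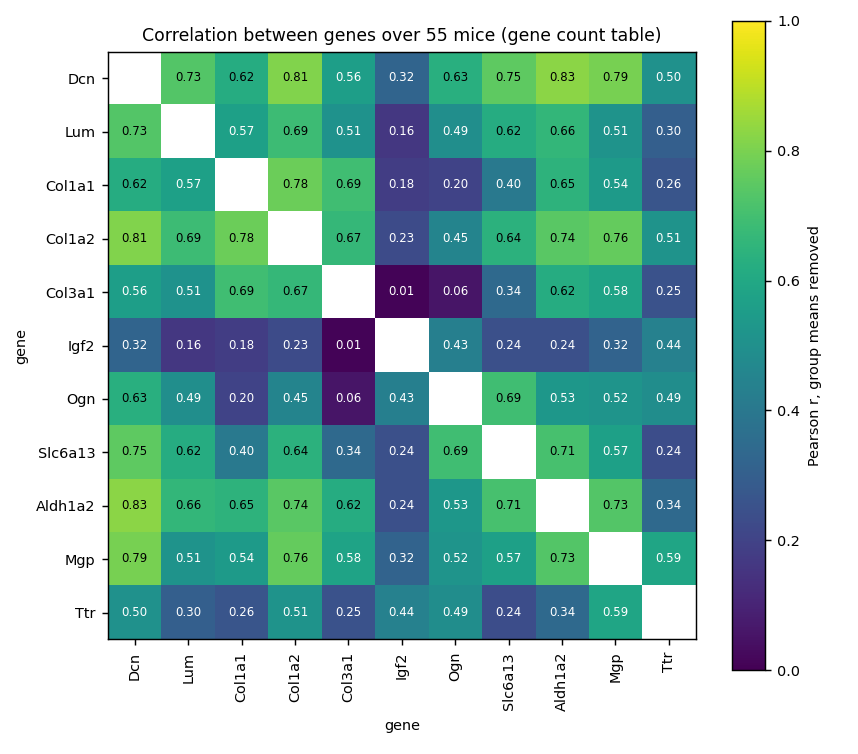
Pearson correlation (colour and printed value) between the members and with Ttr over the 55 mice, group means removed, in the gene count table. Most pairs of the 8 tested members are brighter than the row of Ttr, in which Mgp has the highest value, 0.587; Igf2, with at most 50 counts in this table, is dark against the other members.

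With Col1a2 entered beside Ttr in the same model, the Ttr term passed for 1 of the 7 remaining members and the Col1a2 term for 6. Over all genes 11.9% passed on Ttr and 6.38% on Col1a2. The Ttr slope of Mgp was 0.088 (SE 0.027, FDR 0.0239), and that of Ogn was 0.095 (SE 0.035, FDR 0.0615). Dcn kept 0.049 (SE 0.036, FDR 0.384), and Lum 0.008 (SE 0.034, FDR 0.903). Values were below 0 for Col1a1 (-0.037), Aldh1a2 (-0.041) and Slc6a13 (-0.068), with FDR from 0.307 to 0.589. The call of Mgp was lost without sample weights and with Dcn in the place of Col1a2. The slopes on Col1a2 that passed were 0.927 for Aldh1a2, 0.825 for Slc6a13, 0.729 for Dcn, 0.630 for Col1a1, 0.529 for Mgp and 0.501 for Lum, each with an FDR of at most 0.00125. Ogn had 0.211 (SE 0.101, FDR 0.151). In the transcript table Igf2 passed on both terms, with a slope of 0.127 on Ttr (SE 0.032, FDR 0.0163, where 4.8% of genes passed) and of 0.494 on Col1a2 (SE 0.088, FDR 0.000591, where 0.938% passed).

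Other meningeal and fibroblast genes were read the same way. Of its 24 tested genes, 4 rose with Ttr alone (median slope 0.053) and 19 rose with Col1a2 at fixed Ttr, while in the choroid plexus list 19 of 19 rose with Ttr and 6 with Col1a2. The 4 were Fmod, Bgn, Pcolce and Ptgds. The most abundant were Ptgds, prostaglandin D synthase, with a slope of 0.121 (FDR 0.0452), Vtn, vitronectin, with 0.053 (FDR 0.237), and Pdgfra, a receptor also borne by oligodendrocyte precursors, with 0.006 (FDR 0.92). Among the 10 genes most like the mean of the members in their pattern over the 55 mice were Fmod (r = 0.901), Ptgds (0.889), Slc6a20a (0.871), Slc22a6 (0.87), Slc13a4 (0.864), Slc7a11 (0.84), Gjb2 (0.83), Gstm2 (0.799) and Spp1 (0.796). Their r with Ttr was 0.347 (Slc7a11) to 0.695 (Slc13a4).

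The pathways around the members followed Ttr in few genes. In the small leucine-rich proteoglycans 4 of 8 rose, of which Dcn and Ogn are members. The others were Bgn, biglycan, with a slope of 0.088 (FDR 0.0165), and Fmod, fibromodulin, with 0.221 (FDR 0.017), while Prelp had 0.067 (FDR 0.0704). Of 16 genes that process fibrillar collagen only Pcolce, an enhancer of procollagen cleavage, rose (0.269). The abundant Sparc had 0.042 (FDR 0.22), Mia3 -0.030 (FDR 0.267) and Ppib -0.008 (FDR 0.822). Of 11 genes of the insulin-like growth factor system Igfbp2 rose (0.180), and the abundant Igfbp4, Igfbp5 and Igf1r lay between -0.009 and -0.001 with FDR from 0.82 to 0.985. Among genes of retinoic acid synthesis and breakdown the abundant Aldh1a1 (0.029, FDR 0.39) and Dhrs3 (0.034, FDR 0.21) did not pass. None of 5 GABA and betaine transporters passed, and the abundant Slc6a6 had -0.033 (FDR 0.337) and Slc6a8 0.003 (FDR 0.922). Pcolce, Igfbp2 and the genes singled out as the called members of a list were named after their values were seen.

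Markers of other cells that such a dissection could hold were read beside these slopes. None passed of 10 tested markers of vascular smooth muscle and pericytes, 10 of endothelium, 5 of blood, 3 of pituitary or 10 of hippocampal neurons, by limma. The median slopes of these lists were 0.031, 0.044, 0.077, 0.031 and -0.016. Of 7 ependymal markers 3 rose, with a median of 0.124 and Cfap126 at 0.186 (FDR 2.98e-08), and of 4 border macrophage markers 1 rose, Pf4 (0.142, FDR 0.0271). The part of ependyma in the members' slopes was not tested.

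The slope on Ttr did not differ detectably between genotypes in any of the 8 members, where 11.8% of all genes passed the same test. Ogn had 0.243 (SE 0.062) in WT and 0.102 (SE 0.033) in KO, a difference of -0.141 (95% interval -0.281 to -0.00022, FDR 0.162), and was the only member with an unadjusted p under 0.05. Col1a2 had 0.109 (SE 0.073) in WT and 0.273 (SE 0.043) in KO, a difference of 0.164 (95% interval -0.0075 to 0.335, FDR 0.183).

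Across the cycle, the members differed in few of the 6 pairs of stages compared in each genotype. In WT, Dcn and Col1a1 were lower in estrus than in proestrus, 2 calls of 48 tests. Dcn was at 13.3, 7.72, 22.3, 3.19 and 9.51 CPM in the 5 WT proestrus mice, and ran from 2.28 through a median of 4.27 to 7.40 CPM in the 7 WT estrus mice. Only proestrus mouse 4 lay within the estrus range. The difference was -1.37 on the log2 scale (SE 0.39, FDR 0.0233, limma). Col1a1 was at 4.38, 2.98, 7.19, 2.01 and 3.94 CPM in proestrus and ran from 1.45 through 2.60 to 3.04 CPM in estrus, a difference of -0.85 (SE 0.28, FDR 0.0495) in groups that overlapped. Over all genes 6.82% differed in this pair. The other members were also lower, from -0.28 (Ogn) to -1.01 (Aldh1a2), without passing. Ttr differed by -4.59 (SE 1.196, FDR 0.0142), and 16 of 20 genes of the choroid plexus list were lower. The summed level of the other 19 genes of that list was 117 to 790 CPM in WT proestrus and 126 to 179 CPM in WT estrus. With Ttr in the model the difference was -0.65 (FDR 0.345) for Dcn and -0.50 (FDR 0.359) for Col1a1. Both calls were lost under edgeR and DESeq2, and without WT proestrus mouse 1 or mouse 3, and that of Col1a1 was lost in 27 of the 55 fits that left out 1 mouse.

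In KO, the pairs that passed all involved diestrus, and no difference of Ttr was detected in them. Lum was at 3.41, 3.81, 4.70 and 1.60 CPM in the 4 KO proestrus mice, and ran from 0.926 through a median of 1.47 to 4.36 CPM in the 6 KO diestrus mice. All proestrus mice but mouse 4 exceeded all diestrus mice but mouse 1. The difference was 1.39 (SE 0.36, FDR 0.00201), where 34.3% of all genes passed. Col1a2 was at 9.74, 6.30, 3.25 and 1.80 CPM in KO proestrus and ran from 1.54 through a median of 2.24 to 5.64 CPM in KO diestrus, a difference of 1.36 (SE 0.41, FDR 0.00757) in groups that overlapped. Between KO estrus and KO diestrus, Lum differed by 1.07 (SE 0.35, FDR 0.0182), with 1.99 through 2.35 to 5.90 CPM in the 6 KO estrus mice, where 30.7% of all genes passed. Age differed between these groups, with 4 of the 6 KO diestrus mice under 14 weeks old and 5 of the 6 KO estrus mice at 14 weeks or more. Among mice of 14 weeks or more, 2 in diestrus and 5 in estrus, the difference of Lum was 0.053 (FDR 1), and with age as a term in all mice it was 0.83 (FDR 0.1). Ttr differed by 0.36 (SE 1.17, FDR 0.847) in the former pair and by -1.64 (SE 1.15, FDR 0.267) in the latter, and 2 and 0 of 20 choroid plexus genes were higher. Neuronal markers moved in these pairs as well, with 3 higher and 3 lower of 10 in the former and 5 higher and 3 lower in the latter. All 3 calls were lost under edgeR and DESeq2, that of Col1a2 also without KO proestrus mouse 1 or 2, and that of Lum in estrus without KO diestrus mouse 2 or 5 or KO estrus mouse 6.

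The remaining stage pairs gave no call among the members. In WT the shares of all genes called were 7.24% for diestrus against metestrus, 0.767% for proestrus against metestrus, 0% for estrus against metestrus, 9.66% for proestrus against diestrus and 22.1% for estrus against diestrus. In KO they were 10.4%, 4.37% and 0% for diestrus, proestrus and estrus against metestrus and 0.507% for estrus against proestrus. In all 48 WT tests 17 had an unadjusted p under 0.05, where 22.2% of the same tests over all genes did, and in the 48 KO tests 13, where 27.2% did.

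**Figure D5:**
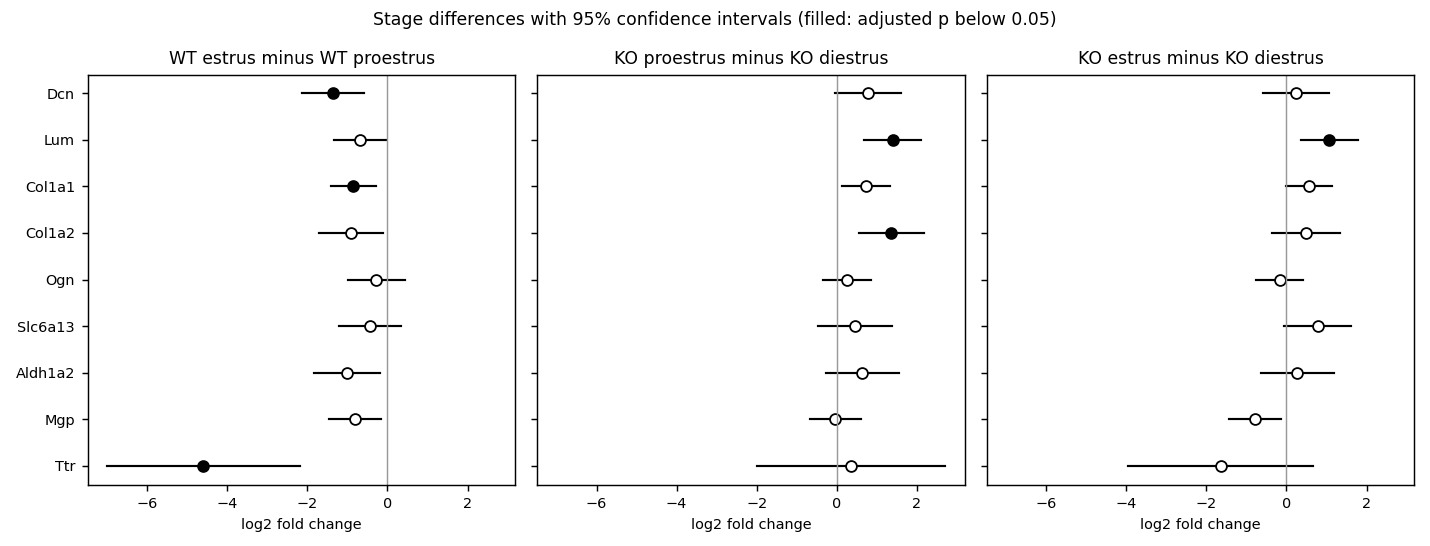
Differences between estrous stages (horizontal axes, log2 fold change with 95% confidence interval) of the 8 tested members and of Ttr, in the 3 stage pairs with a called member; filled points have an FDR under 0.05. Estimates in WT estrus minus proestrus lie below 0 for the 8 members and Ttr, and in the KO pairs the filled points are Lum and Col1a2 while the interval of Ttr spans 0.

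No member differed between KO and WT in the 5 matched groups, between females and males, or in how a stage difference depended on genotype, by limma, edgeR or DESeq2. Of 40 tests of KO against WT 3 had an unadjusted p under 0.05, with a lowest FDR of 0.228, where 9.57% of these tests over all genes had such a p. The shares of all genes called were 0.00619% in males, 0.179% in estrus, 0.315% in proestrus, 0% in diestrus and 0.0247% in metestrus. Of 16 tests of females against males none had an unadjusted p under 0.05, where 11.8% of these tests over all genes did, and 0.0309% of all genes passed in WT and 5.93% in KO. Of 48 tests of the genotype difference of a stage pair 3 had an unadjusted p under 0.05, with a lowest FDR of 0.283, where 9% of these tests over all genes had such a p and 0% of all genes passed in each of the 6 pairs. The stage calls in WT and KO are therefore not shown to differ between genotypes.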

How the data were processed

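RNA-seq libraries of 55 mice were read from the authors' table of counts per gene, made per the study's methods and the submitters' processing notes with STAR 2.7.9a and featureCounts 2.0.3 on GRCm38, Ensembl release 101. Of its columns, 1 belongs to no listed sample and was not used. Of the counts from 1 to 10, 60.1% were even. The deposited log2 CPM values were recomputed from the counts for 16164 genes and differed by at most 5e-14. A deposited table of estimated counts per transcript (Salmon 1.5.2 is named in the submitters' processing notes without its role) was summed per gene and rounded for Igf2 only, chosen after seeing the data, because the table was used in part. 5 ribosomal RNA genes were left out, and genes with more than 1 CPM in at least 10 libraries (16168) were scaled by TMM and fitted by limma 3.58.1 with voom and sample quality weights, with 10 group means over all mice. Slopes add log2 CPM of Ttr, and p-values were adjusted by Benjamini-Hochberg over all genes at 0.05. For levels 0.5 was added to counts. Correlations used group means removed and 100000 permutations of Ttr within groups, two-sided. Alternatives used edgeR 4.0.16 and DESeq2 1.42.0 in R 4.3.3, other scaling, filters and subsets. The fits were tested on simulated data. The members, the 15 gene lists and the rule for naming genes (members, Ttr, the 3 most abundant genes of a list, the 10 most like the members) were chosen with earlier results of these data known. P-values measure the spread between these mice. The 95% intervals come from the limma fits and rest on the same spread. Some genes that this rule names are not reported here.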

Additional observations from a re-analysis of the deposited data

Results flagged for a closer look

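In 110 sets of a gene and a group, 16 held a mouse set apart from the rest of its group. Its gap was large beside the whole range of the group on the log2 CPM scale, and chance gives about 1 in 20. The sets are not independent, as the genes share the same mice and correlate across them, so the 16 are not a test. KO male mouse 4 alone was flagged for Dcn, Col1a1, Ogn and Slc6a13. The gap is given as a share of the range. Dcn was high in KO metestrus mouse 2 (0.895, at 3.95 beside 2.30 in the nearest mouse) and in KO male mouse 4 (0.591). Lum was high in KO estrus mouse 6 (0.632), as was Aldh1a2 (0.728). Col1a1 was low in WT estrus mouse 7 (0.572, 72 counts) and high in KO male mouse 4 (0.836). Igf2 in the gene table was low in WT proestrus mouse 4 (0.879, 2 counts) and in WT male mouse 1 (0.794, 3 counts). Ogn was high in WT metestrus mouse 3 (0.878) and in KO male mouse 4 (0.603) and low in KO estrus mouse 1 (0.752, 34 counts). Slc6a13 was high in KO diestrus mouse 1 (0.777), KO proestrus mouse 2 (0.885) and KO male mouse 4 (0.669), and low in KO estrus mouse 1 (0.666, 22 counts). Mgp was low in KO diestrus mouse 6 (0.716).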

How the results depend on the processing

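Of the 8 members, 4 rose with Ttr, and this became 7 without group means in the model and 2 in WT mice alone. It was 2 in the 39 mice whose parent label names both Cnih3 and B6, a set that held KO mice as well. It was 0 in the 20 mice whose label number is written without a joined second part, and 5 in the other 35 mice. It was 1 without the 10 mice highest in Ttr, where the slopes of Col1a1 (-0.015), Slc6a13 (-0.0047) and Aldh1a2 (-0.045) turned. The count was 4 or 5 under edgeR, DESeq2, no weights, no filter, other scaling, age or RNA quality added, and the choroid plexus mean in place of Ttr. With single mice left out it was 2 to 4. The shares of all genes that passed in these fits are not given here. Members with a Ttr slope beside Col1a2 numbered 1, and 0 without weights or with Dcn in its place (0 to 2 with single mice left out). Correlations that passed numbered 2, and 4 without group means removed. The 2 members called in WT stage pairs became 0 under edgeR, DESeq2, no weights, no filter, and with Ttr or the choroid plexus mean added, 1 with age added and 7 in mice of 14 weeks or more, and 0 to 5 with single mice left out (0 without WT proestrus mouse 1 or 3, 5 without WT proestrus mouse 4, 4 without WT metestrus mouse 4 or WT diestrus mouse 1, 2 or 6, and 1 without any of 23 other mice). The 2 members called in KO stage pairs became 0 under edgeR, DESeq2, no weights and in mice of 14 weeks or more. They became 1 without the filter and 4 in the mice whose parent label names both Cnih3 and B6. With single mice left out they numbered 1 to 4 (1 without KO proestrus mouse 2, 4 without WT male mouse 2, KO male mouse 4, WT proestrus mouse 3 or 4, or KO diestrus mouse 6). Calls of KO against WT were 0, or 1 (Lum) without WT diestrus mouse 3 or 4. The Ogn slope lost its call without KO metestrus mouse 2, KO male mouse 4 or WT proestrus mouse 4. The slope of Igf2 in the transcript table was refitted only without weights, under edgeR, without WT male mouse 2 and without KO male mouse 4. It kept its call in these fits, between 0.195 without KO male mouse 4 and 0.229 without weights. The subsets of mice named above and the other single mice left out were not run for Igf2. The cause of these changes was not tested. Genes with few counts, such as Col3a1, limit what could be tested.

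Of the mice, 26 share the first part of their label number with another mouse, in 8 sets that cross groups, and a fit with that part as a replicate block was added after seeing the data. Over all tested genes, 7 of 26 pairs of mice of different groups with the same first part had deviations correlated over 0.1. Their median was 0.012 (from -0.288 to 0.437), beside -0.0077 in pairs with different first parts. A factor that touches few genes could be missed by this measure, and what the first part marks was not tested. With the block, 0 members rose with Ttr, and the slopes of Dcn (-0.016), Slc6a13 (-0.087) and Aldh1a2 (-0.119) turned. In the same 26 mice without the block 0 rose too, with all 8 slopes above 0. WT stage pairs gave 0 members with and without the block, and WT estrus minus proestrus turned for Dcn (0.20 without it) and for Col1a1 (0.22 with and 0.073 without it). KO stage pairs gave 1 member with the block, where the difference of Col1a2 between proestrus and diestrus turned (-0.16), and 2 without it. KO against WT gave 0 with the block and 1 (Ogn) without it.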

Other observations

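KO estrus mouse 1 split the members. Ogn (0.706 CPM) and Slc6a13 (0.457 CPM) ranked 55 of 55 mice there, as did Igf2 in the transcript table, while Col1a1 ranked 4 and Col3a1 ranked 2. Ttr ranked 32 in this mouse (48.7 CPM). KO male mouse 4 was the reverse of such a split, with all 10 members among the 5 highest mice and Ttr at rank 6. WT male mouse 3, with 652 CPM of Ttr (rank 10), ranked 52 in Col1a1, 52 in Col3a1 and 47 in Aldh1a2.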
